A study of Mus musculus with 12 samples.

Results

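Messenger RNAs of the mitochondrial ribosomal proteins were examined in the hippocampal CA1 subfield of mice after transient forebrain ischemia. The members were the 74 genes, of 12394 measured, whose single symbol in the platform annotation was Mrpl or Mrps followed by digits, 47 of them Mrpl and 27 Mrps. The arrays compared wild-type mice with SUMO-KD transgenic mice, in which the small ubiquitin-like modifier SUMO is knocked down, each after sham surgery or after 10 minutes of ischemia and 3 hours of reperfusion. The labels do not give the promoter of the transgene, the strain, the sex or the age. Each of the 4 groups (wild-type sham, wild-type ischemia, SUMO-KD sham and SUMO-KD ischemia) held 3 arrays, and each sample pooled tissue of 2 brains. Replicates here are those pools, which the labels call biological replicates.

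The mitochondrial ribosome (mitoribosome) is a separate translation machine inside mitochondria. Its proteins are all encoded in the nucleus, made in the cytosol and imported, whereas its ribosomal RNAs come from the mitochondrial genome. It makes only the few mitochondrially encoded subunits of the respiratory chain and ATP synthase, so cells with a high demand for oxidative energy, neurons among them, depend on it. Many of its proteins descend from those of bacterial ribosomes, and others are found only in mitochondria. Mrpl symbols were given to proteins of the large subunit, which joins amino acids, and Mrps symbols to those of the small subunit, which reads the messenger RNA. There are exceptions: Mrps30 and Mrps18a sit in the large subunit in solved structures, and Mrps36 is now known as a component of the alpha-ketoglutarate dehydrogenase complex. By textbook knowledge 44 members had a bacterial counterpart and 29 were mitochondrion-specific, with Mrps36 left aside.

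Values are deposited intensities of 1 probe set per gene, and changes are differences of log2(intensity + 32), which understate the change of dim genes. A gene was called, and is said to have risen or fallen, at a Benjamini-Hochberg adjusted p under 0.05 over all 12394 genes in limma's moderated test. Of the SUMO genes Sumo3 was measured, and the knockdown arrays had less of it, with a SUMO-KD minus wild-type log2 difference of −0.58 in sham arrays (adjusted p = 0.0096) and of −0.82 after ischemia (adjusted p = 0.00151). Median array intensity lay between 141.0 and 162, and the highest correlation between arrays of a group was 0.993. The control probe set for the 5′ part of 18S ribosomal RNA read 4194 to 6528 in the 6 sham arrays and 1275 to 1660 in 5 of the 6 ischemia arrays, with 4127 in SUMO-KD ischemia replicate 2. The part of this difference in the results was not tested.

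The members were lower after ischemia more often than higher. In the mean response over both genotypes 24 of 74 fell and 5 rose, which is 32.4% and 6.76% of the members, where 14.0% of all genes fell and 12.8% rose. The largest falls were of Mrpl36 and Mrpl34, small proteins of the large subunit, and the largest rise was of Mrpl9. The changes were modest: the members ran from −0.61 to 0.39 on the log2 scale, with a median of −0.13 against −0.029 for all genes. Of the 74 members, 55 had a mean change below 0 (56.1% of all genes did). With each array centred on its median, 28 members fell and 3 rose, and over all genes the split of 1732 lower and 1582 higher became 2279 lower and 1348 higher. In bulk tissue, fewer cells of a type and less RNA per cell cannot be told apart.

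**Figure D1:**
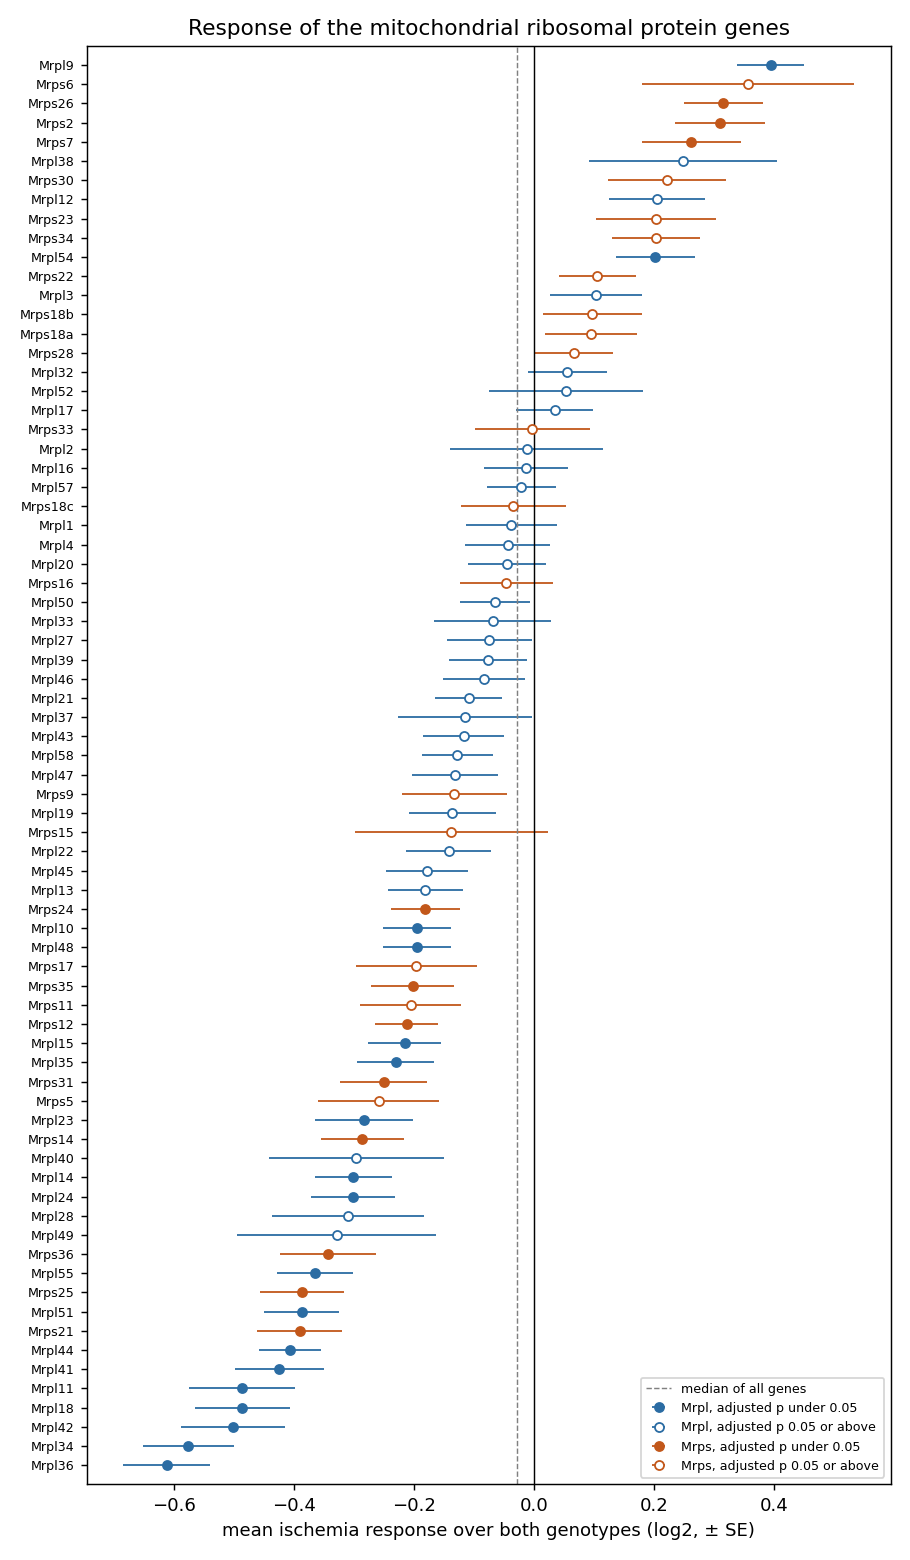
Mean ischemia response of the 74 members over both genotypes. Each point is 1 gene, the x axis is the log2 change with its SE, filled points have an adjusted p under 0.05, and blue and orange mark Mrpl and Mrps symbols. The ordered points run from −0.61 for Mrpl36 to 0.39 for Mrpl9, with 24 filled points below 0 and 5 above.

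Mrpl36 encodes the counterpart of bacterial L36, a very small protein of the large subunit. Its intensity was 487, 470.2 and 534 in wild-type sham, 288, 357 and 328 after wild-type ischemia, 431, 492 and 529 in SUMO-KD sham and 288, 288 and 313 after SUMO-KD ischemia. All 6 ischemia arrays lay below all 6 sham arrays. It fell in both genotypes, with changes of −0.57 (SE 0.10, adjusted p = 0.00273) in wild-type and −0.65 (SE 0.10, adjusted p = 0.00204) in SUMO-KD. Among the members it had the largest mean response, −0.61 (SE 0.072, adjusted p = 0.000104).

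Mrpl34 encodes the counterpart of bacterial L34, another small protein of the large subunit. Its intensity was 600.3, 501 and 616 in wild-type sham, 353, 337 and 345 after wild-type ischemia, 546, 557 and 538 in SUMO-KD sham and 437, 332 and 392 after SUMO-KD ischemia. Sham and ischemia arrays did not overlap in either genotype, and the 3 wild-type ischemia arrays lay close together. The change was −0.68 (SE 0.11, adjusted p = 0.00132) in wild-type and −0.47 (SE 0.11, adjusted p = 0.0156) in SUMO-KD. The SUMO-KD change did not pass when SUMO-KD sham replicate 2 (−0.46, adjusted p = 0.0524) or SUMO-KD ischemia replicate 2 (−0.38, adjusted p = 0.0647) was omitted, and with a gene's probe sets averaged (−0.20, adjusted p = 0.153). The other Mrpl34 probe set was dim, with a mean intensity of 71.4, and showed no call.

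Mrpl42 encodes a mitochondrion-specific protein of the large subunit. Its intensity was 1746, 1428 and 1715 in wild-type sham, 1044, 1175 and 872 after wild-type ischemia, 1475, 1431 and 1539 in SUMO-KD sham and 1271, 1046 and 1152 after SUMO-KD ischemia. Every ischemia array was below every sham array. It fell in wild-type, at −0.65 (SE 0.12, adjusted p = 0.00382), while the SUMO-KD change was −0.35 (adjusted p = 0.0953). The difference between the genotypes' responses was 0.30 (SE 0.17, adjusted p = 0.876).

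Mrpl9 encodes the counterpart of bacterial L9, a large subunit protein, and moved the other way. Its intensity was 659, 648 and 704 in wild-type sham, 970.4, 889 and 890.2 after wild-type ischemia, 742, 738 and 748 in SUMO-KD sham and 927, 1024 and 924 after SUMO-KD ischemia. All ischemia arrays exceeded all sham arrays, and the 3 SUMO-KD sham arrays were close together. It rose by 0.43 (SE 0.079, adjusted p = 0.0031) in wild-type and by 0.35 (SE 0.079, adjusted p = 0.0152) in SUMO-KD. The SUMO-KD call was lost without SUMO-KD ischemia replicate 2 (0.31, adjusted p = 0.0675), the array with sham-like 18S signal, with each array centred on its median (0.31, adjusted p = 0.066), with only the SUMO-KD arrays fitted (0.35, adjusted p = 0.0519) and with its probe sets averaged (0.19, adjusted p = 0.319). Averaging also ended the wild-type call (0.30, adjusted p = 0.0653), and the other Mrpl9 probe set had a mean response of 0.092.

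The start-site windows of these 4 genes, the members with the largest falls and the largest rise, are shown because their messages lead both directions described above and promoters of this family are known to carry sites for regulators of mitochondrial biogenesis. Each runs from 250 bases before to 50 bases after the start in RefSeq's GRCm38.p6 annotation, 5′ to 3′ in the direction of transcription. Capitals mark matches to the letters searched on both strands: GCATGCGC (bound by NRF1), CCGGAAGT (ETS factors such as GABPA), AAGATGGC (YY1) and CACGTG (the E-box of MYC). The positions are chr13:73330759-73331058 on the plus strand, chr8:71464676-71464975 on the plus strand, chr10:95501900-95502199 on the minus strand and chr3:94443086-94443385 on the plus strand, in this order:
Mrpl36: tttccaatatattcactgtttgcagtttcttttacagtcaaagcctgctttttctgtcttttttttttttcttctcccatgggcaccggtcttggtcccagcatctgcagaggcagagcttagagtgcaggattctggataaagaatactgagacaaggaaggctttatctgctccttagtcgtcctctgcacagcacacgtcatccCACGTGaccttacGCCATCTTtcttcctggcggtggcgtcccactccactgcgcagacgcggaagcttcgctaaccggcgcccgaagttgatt
Mrpl34: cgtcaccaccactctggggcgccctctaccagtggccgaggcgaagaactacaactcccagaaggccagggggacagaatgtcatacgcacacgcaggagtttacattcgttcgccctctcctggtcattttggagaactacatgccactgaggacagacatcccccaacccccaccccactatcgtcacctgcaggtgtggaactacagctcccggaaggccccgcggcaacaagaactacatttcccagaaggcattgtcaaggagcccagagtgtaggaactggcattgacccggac
Mrpl42: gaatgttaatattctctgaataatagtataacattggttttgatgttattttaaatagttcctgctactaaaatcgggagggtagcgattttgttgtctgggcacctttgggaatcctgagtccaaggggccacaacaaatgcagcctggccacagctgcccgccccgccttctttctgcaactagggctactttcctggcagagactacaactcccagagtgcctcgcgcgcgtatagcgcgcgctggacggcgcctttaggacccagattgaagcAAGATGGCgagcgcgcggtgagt
Mrpl9: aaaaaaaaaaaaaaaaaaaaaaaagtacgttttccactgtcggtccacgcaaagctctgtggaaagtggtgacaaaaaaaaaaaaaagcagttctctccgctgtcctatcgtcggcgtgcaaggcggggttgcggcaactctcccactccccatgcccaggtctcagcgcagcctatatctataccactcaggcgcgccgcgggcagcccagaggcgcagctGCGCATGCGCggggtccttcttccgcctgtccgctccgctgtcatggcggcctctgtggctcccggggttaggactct

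Mrpl36 held 1 YY1 match and 1 E-box, Mrpl42 held 1 YY1 match close to the end of its window, and Mrpl9 held 1 stretch that reads as the NRF1 letters on both strands and so counts as 2 overlapping matches. In the Mrpl34 window these letters did not occur. Windows were found for 65 members, and 9 had none in the table. The YY1 letters were in 11 of the 65 (16.9%) and in 3.91% of the 9888 measured genes with a window. The NRF1 letters were in 8 (12.3% against 4.54%), the ETS letters in 10 (15.4% against 6.71%) and the E-box in 5 (7.69% against 9.34%). Any of them was in 29 members (44.6% against 21.8%). Of the 11 members with YY1 letters 5 fell, as did 17 of the 54 without. Of the 8 with NRF1 letters 1 fell, as did 21 of the 57 without. The median mean response was −0.21 with YY1 letters and −0.12 without, and −0.017 with NRF1 letters and −0.14 without. These counts are small and no test was made of them.

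Among the remaining large subunit proteins with a bacterial counterpart, Mrpl18 and Mrpl11 fell in both genotypes. Mrpl18 belongs to the family that binds 5S ribosomal RNA in bacteria and lies in the crown of the large subunit. Its intensity was 1002, 973 and 1067 in wild-type sham, 721, 638 and 722 after wild-type ischemia, 1029.6, 921 and 1043 in SUMO-KD sham and 697, 858 and 636 after SUMO-KD ischemia. Its ischemia arrays were all below its sham arrays, with changes of −0.53 (SE 0.11, adjusted p = 0.00709) in wild-type and −0.44 (SE 0.11, adjusted p = 0.0269) in SUMO-KD. Mrpl11 forms the base of the stalk where translation factors dock. Its intensity was 1024, 1083 and 1087 in wild-type sham, 801, 737 and 778 after wild-type ischemia, 1125, 1034 and 1059.5 in SUMO-KD sham and 868, 579.9 and 793 after SUMO-KD ischemia. SUMO-KD ischemia replicate 2 had the lowest Mrpl11 signal. The Mrpl11 changes were −0.45 (SE 0.12, adjusted p = 0.0278) and −0.52 (SE 0.12, adjusted p = 0.0206), and 2 further Mrpl11 probe sets fell in the mean response, at −0.62 (adjusted p = 0.00144) and −0.51 (adjusted p = 0.0108) in a fit of all probe sets.

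Several of these calls did not pass when an array was left out. For Mrpl11 in wild-type the change itself stayed between −0.475 and −0.417 whichever wild-type array was omitted. The Mrpl11 call in wild-type was lost when any of the 6 wild-type arrays was left out, with adjusted p-values of 0.058, 0.0665 and 0.0789 without sham replicates 1, 2 and 3 and of 0.0559, 0.075 and 0.0645 without ischemia replicates 1, 2 and 3. In SUMO-KD it was lost without sham replicate 1 (0.0742) or sham replicate 3 (0.0545). The SUMO-KD call of Mrpl18 did not survive omission of sham replicate 1 (0.087) or 3 (0.0867) or of ischemia replicate 1 (0.0672) or 3 (0.106). With only the SUMO-KD arrays fitted, neither passed in SUMO-KD (0.0808 for Mrpl11 and 0.0813 for Mrpl18). In the mean response both genes kept their call in all alternatives run, at −0.49 (SE 0.079, adjusted p = 0.000878) for Mrpl18 and −0.49 (SE 0.088, adjusted p = 0.00181) for Mrpl11.

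Some genes of proteins at known functional sites fell in wild-type arrays. Mrpl14, which lies at the face that meets the small subunit, had a mean intensity of 398 ± 18.4 in wild-type sham and 296 ± 24.5 in wild-type ischemia arrays (SD, n = 3), and fell, at −0.39 (SE 0.09, adjusted p = 0.0113). Its SUMO-KD means were 436 ± 25.6 and 373 ± 27.8, a change of −0.21 (adjusted p = 0.181). Mrpl23 and Mrpl24 line the exit of the tunnel through which new peptides leave. Mrpl24 fell, at −0.38 (SE 0.099, adjusted p = 0.0207) and Mrpl23 at −0.37 (SE 0.12, adjusted p = 0.0449) in wild-type, and their SUMO-KD changes were −0.22 (adjusted p = 0.199) and −0.20 (adjusted p = 0.346). Mrpl24 lost the wild-type call without sham replicate 1 (0.0772) or 3 (0.0646) of the wild-type or its ischemia replicate 1 (0.0787) or 3 (0.0641), and with only the wild-type arrays fitted (0.0644). Mrpl23 lost it in 9 of the 12 omissions, where its adjusted p reached 0.139 (without wild-type sham replicate 3), with only the wild-type arrays fitted (0.0716), with no offset (0.0617) and with an offset of 16 (0.0545).

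Mitochondrion-specific proteins of the large subunit gave 3 further falls, those of Mrpl44, Mrpl51 and Mrpl41. Mrpl44, which carries a ribonuclease III-like fold, had the smallest spread within groups of all members (0.043 on the log2 scale). Its intensity was 1691, 1749.8 and 1611 in wild-type sham, 1352, 1278 and 1394 after wild-type ischemia, 1739.6, 1741 and 1716 in SUMO-KD sham and 1227, 1213 and 1230.2 after SUMO-KD ischemia. The groups did not overlap, and the change was −0.32 (SE 0.073, adjusted p = 0.0107) in wild-type and −0.49 (SE 0.073, adjusted p = 0.00142) in SUMO-KD. Another Mrpl44 probe set of mean intensity 929.9 had a mean response of −0.47 (adjusted p = 0.00521) and the third, at 270.1, had −0.36 (adjusted p = 0.0288). With probe sets that can read several transcripts left out, the third stands for the gene, and neither genotype's call remained (−0.32, adjusted p = 0.171, and −0.40, adjusted p = 0.129). Fitted on the wild-type arrays alone, its wild-type call was also lost (0.0606).

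Mrpl51 had mean intensities of 1518 ± 8.61 and 1168 ± 96.5 in wild-type sham and ischemia arrays and of 1624 ± 40.7 and 1225 ± 106 in SUMO-KD (SD, n = 3 in each). The ischemia arrays were all below the sham arrays, and it fell, at −0.37 (SE 0.089, adjusted p = 0.0137) and −0.40 (SE 0.089, adjusted p = 0.0142). The wild-type call was lost without wild-type ischemia replicate 1 (−0.34, adjusted p = 0.052), and the SUMO-KD call with probe sets averaged (−0.24, adjusted p = 0.154). Mrpl41 was among the brightest members. Its intensity was 2123, 2164 and 2152 in wild-type sham, 1492, 1591 and 1382 after wild-type ischemia, 2149, 2063 and 2085 in SUMO-KD sham and 1911, 1419 and 1706 after SUMO-KD ischemia. Its 3 wild-type sham arrays nearly coincided, and it fell, at −0.52 (SE 0.10, adjusted p = 0.00549) in wild-type, with −0.33 (adjusted p = 0.0723) in SUMO-KD. With the next Mrpl41 probe set in its place the wild-type value was −0.36 (adjusted p = 0.0922). Mrpl55, counted here among the proteins with a bacterial counterpart, went from 507 ± 26.7 to 347 ± 30.3 in wild-type, a change of −0.51 (SE 0.089, adjusted p = 0.0025), and from 489 ± 28.2 to 415 ± 23.5 in SUMO-KD, a change of −0.22 (adjusted p = 0.151).

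**Figure D2:**
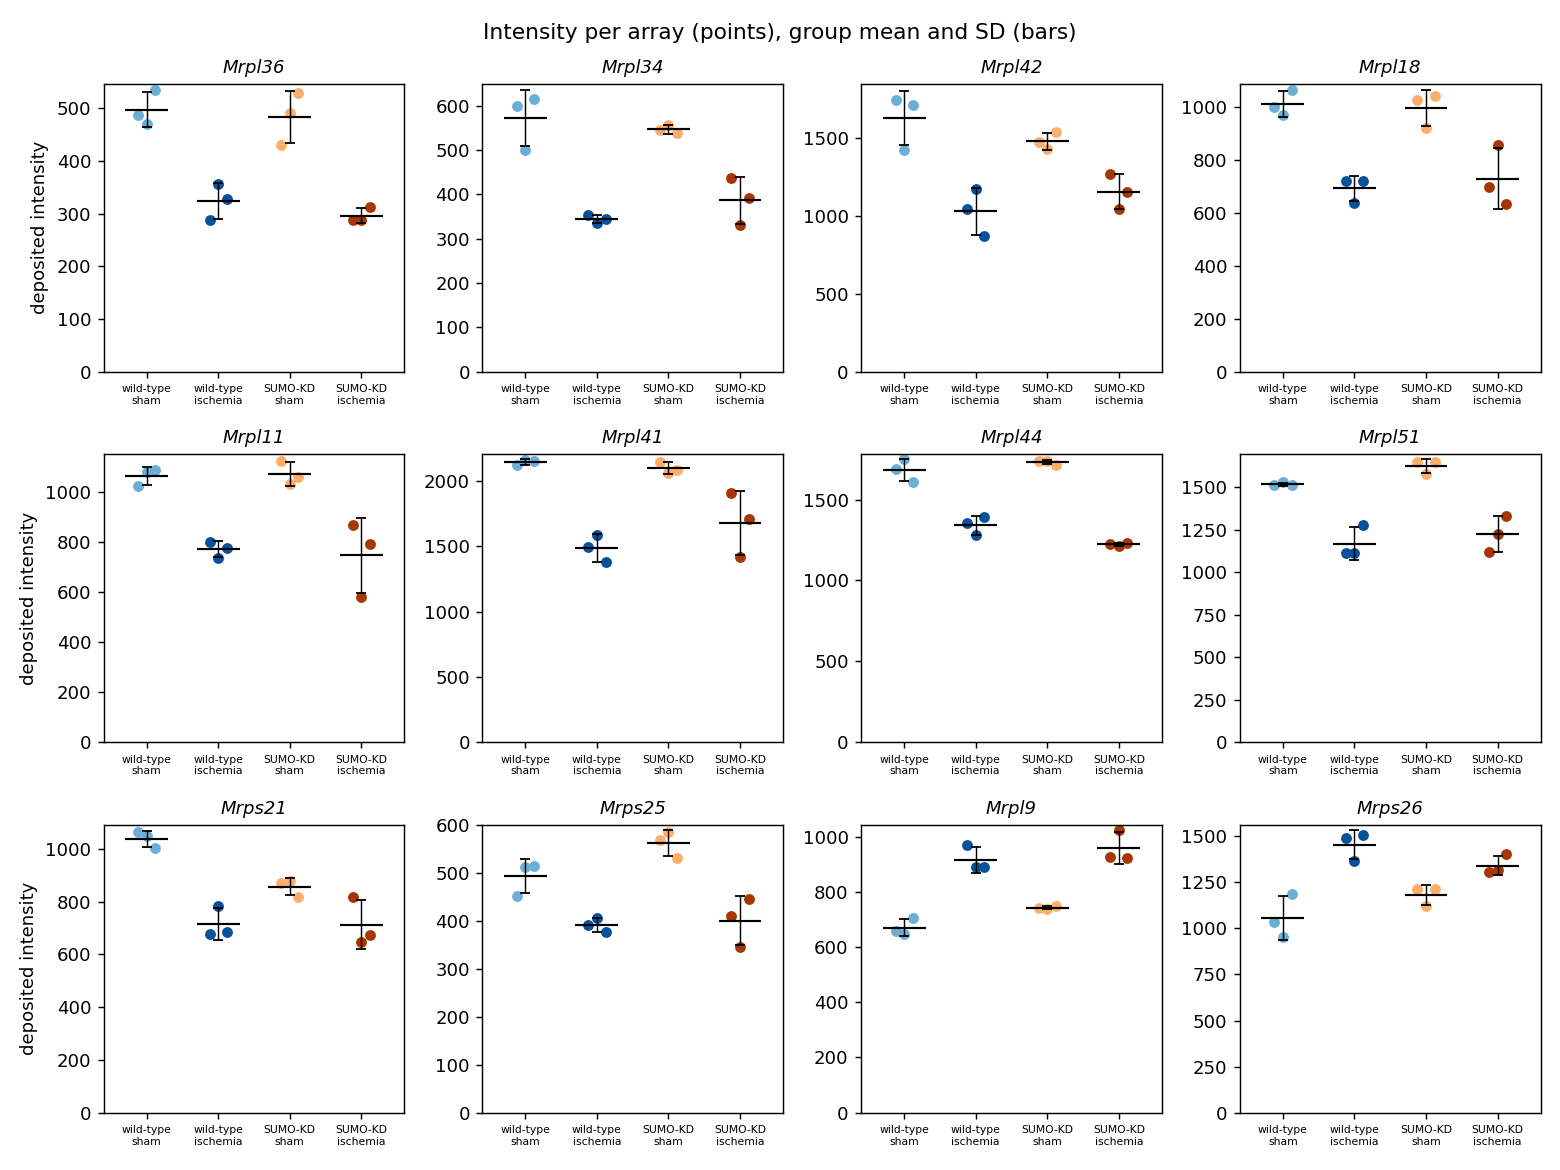
Deposited intensity of 12 members on each of the 12 arrays. Points are arrays, bars give the group mean and SD (n = 3), and each panel has its own axis from 0. In the panels of Mrpl36 to Mrps25, apart from Mrps21 in SUMO-KD, the ischemia points lie below the sham points of the same genotype. In those of Mrpl9 and Mrps26 they lie above them. For Mrps21 in SUMO-KD the highest ischemia point and the lowest sham point nearly coincide.

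Of the 27 genes with Mrps symbols 2 fell and 2 rose in wild-type, and 1 fell and 0 rose in SUMO-KD. Of the 47 with Mrpl symbols 12 fell and 1 rose in wild-type, and 7 fell and 1 rose in SUMO-KD. Over all genes 8.88% fell and 9.59% rose in wild-type, and 4.62% fell and 6.08% rose in SUMO-KD. Mrps21, the counterpart of bacterial S21, fell in wild-type. Its intensity was 1062, 1049 and 1004 in wild-type sham, 678, 784 and 685 after wild-type ischemia, 871, 878 and 818 in SUMO-KD sham and 818, 647 and 673 after SUMO-KD ischemia. The ischemia arrays of both genotypes lay in the same range, while SUMO-KD sham arrays were below wild-type sham arrays. The change was −0.52 (SE 0.1, adjusted p = 0.00426) in wild-type and −0.26 (adjusted p = 0.131) in SUMO-KD. Mrps12 is the counterpart of S12, the bacterial protein of the decoding centre in which streptomycin resistance arises. Its intensity was 1265, 1239.6 and 1298 in wild-type sham, 933, 988 and 1009.8 after wild-type ischemia, 1233, 1241 and 1232 in SUMO-KD sham and 1133, 1179 and 1246 after SUMO-KD ischemia. Its wild-type ischemia arrays stood below all others, with a wild-type change of −0.37 (SE 0.074, adjusted p = 0.00563) and a SUMO-KD change of −0.06 (adjusted p = 0.708). The Mrps12 probe set is one of 8 used here whose type can also read related sequences.

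Mrps25, a mitochondrion-specific small subunit protein, had mean intensities of 494 ± 36.0 and 392 ± 14.5 in wild-type sham and ischemia arrays and 562 ± 26.9 and 401 ± 50.6 in SUMO-KD (SD, n = 3 in each). The groups did not overlap in either genotype. It fell in SUMO-KD, at −0.46 (SE 0.099, adjusted p = 0.0125), and the wild-type change was −0.31 (adjusted p = 0.0508). The SUMO-KD call was lost with its probe sets averaged (−0.33, adjusted p = 0.0765) and with only SUMO-KD arrays fitted (0.0502). A further 2 small subunit symbols were among the 15 largest falls of the mean response. Mrps14 had −0.29 (SE 0.069, adjusted p = 0.00972), with −0.30 (adjusted p = 0.00493) at its other probe set, and Mrps36, the gene of the dehydrogenase component, had −0.34 (SE 0.081, adjusted p = 0.0085).

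The rises beside Mrpl9 were all of small subunit symbols except Mrpl54. Mrps26, a mitochondrion-specific protein, rose in wild-type. Its intensity was 1035, 951 and 1185 in wild-type sham, 1491, 1364 and 1509 after wild-type ischemia, 1216, 1121 and 1213 in SUMO-KD sham and 1305, 1318 and 1402 after SUMO-KD ischemia. Ischemia arrays exceeded sham arrays in both genotypes, and the change was 0.45 (SE 0.094, adjusted p = 0.00641) in wild-type and 0.18 (adjusted p = 0.286) in SUMO-KD. Mrps2, the counterpart of S2, went from 803 ± 64.8 to 1042 ± 81.4 in wild-type (SD, n = 3), a rise of 0.36 (SE 0.11, adjusted p = 0.0339), and from 859 ± 36.0 to 1036 ± 122 in SUMO-KD, a change of 0.26 (adjusted p = 0.161). Its wild-type call was lost without wild-type sham replicate 1 (0.0694), 2 (0.106) or 3 (0.0504) and without wild-type ischemia replicate 1 (0.107) or 3 (0.092), and also with median centring (0.0927), with probe sets averaged (0.191) and with only wild-type arrays fitted (0.0695).

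In the mean response Mrps26 rose by 0.32 (SE 0.066, adjusted p = 0.00455) and Mrps2 by 0.31 (SE 0.075, adjusted p = 0.00972), a call that ended with probe sets averaged (0.21, adjusted p = 0.0917). Mrps7, whose bacterial counterpart lies in the head of the small subunit, rose by 0.26 (SE 0.082, adjusted p = 0.0356), and Mrpl54, mitochondrion-specific, by 0.20 (SE 0.066, adjusted p = 0.0424). These last calls were weak: Mrps7 lost its call in 9 of 12 omissions, with adjusted p-values up to 0.0848 (without wild-type sham replicate 1), and Mrpl54 in 10, up to 0.0984 (without the same array). With each array centred on its median neither passed (0.0865 and 0.149), and Mrpl54 did not pass with quantile normalization (0.0858), the replicate block (0.0646), eBayes with trend and robust (0.0597) or array weights (0.0645). The 5 rises became 3 when wild-type sham replicate 1, wild-type ischemia replicates 1 or 3, SUMO-KD sham replicates 1 or 2 or SUMO-KD ischemia replicate 2 was left out. The other Mrps2 and Mrpl9 probe sets changed in the same direction without a call.

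The 9 falls of the mean response not yet given a value were of Mrpl23, Mrps31, Mrpl35, Mrpl15, Mrps12, Mrps35, Mrpl48, Mrpl10 and Mrps24, from −0.28 to −0.18. Mrpl10, the anchor of the stalk, had −0.19 (SE 0.057, adjusted p = 0.025), and its binding partner Mrpl12 had 0.20 (adjusted p = 0.0792), which did not pass. Of these 9 genes, Mrps12 kept its call in all alternatives run. Mrpl35 kept it in all omissions and lost it with probe sets that can read several transcripts left out (−0.33, adjusted p = 0.112, from a probe set of mean intensity 41.1). The calls of Mrps24, Mrps35, Mrps31, Mrpl10, Mrpl23, Mrpl48 and Mrpl15 were lost in 10, 11, 7, 7, 6, 4 and 2 of the 12 omissions, with adjusted p-values of at most 0.11 (Mrps35 without SUMO-KD sham replicate 1). The Mrps35 call also ended with no offset (0.0527), an offset of 16 (0.0543), the replicate block (0.0575), eBayes with trend and robust (0.0603), array weights (0.0624) and multi-transcript probe sets left out (0.053), and the Mrps24 call with probe sets averaged (0.0765) or the replicate block (0.0519). Averaging probe sets moved Mrpl15 to −0.062 (adjusted p = 0.442), leaving out multi-transcript probe sets moved it to −0.15 (adjusted p = 0.41), and one of its 7 probe sets, of mean intensity 79.9, rose in a fit of all probe sets (0.55, adjusted p = 0.0103). Over all called-lower members, 21 of 23 other probe sets had a change below 0 and 11 were called lower. Of the 14 with a mean intensity of at least 100, all 14 were below 0 and 10 were called lower. Over all genes 56.1% had a change below 0 and 14.0% fell. These probe sets were read on the same arrays that gave the calls, so their counts are not independent support. The 45 members without a call had 28 other probe sets, of which 2 were called lower and 1 higher, and these are named here after their values were seen. Mrpl57, a mitochondrion-specific protein, had −0.021 at the probe set used, of mean intensity 1019, and −0.61 (SE 0.068, adjusted p = 8.04e-05) at its other one, of mean intensity 174, with −0.72 in wild-type and −0.49 in SUMO-KD. Mrpl28 had −0.31 (adjusted p = 0.0947) at the one used and −0.17 (adjusted p = 0.038) at another, and Mrpl38 had 0.25 (adjusted p = 0.286) and 0.38 (adjusted p = 0.0372, mean intensity 65.7).

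By symbol, 16 of 47 Mrpl genes fell and 2 rose in the mean response, with a median of −0.13, and 8 of 27 Mrps genes fell and 3 rose, with a median of −0.046. Of the 44 members with a bacterial counterpart 15 fell and 3 rose, and of the 29 mitochondrion-specific members 8 fell and 2 rose, with medians of −0.14 and −0.083. Over all genes 14.0% fell and 12.8% rose. No test of these differences between member groups was made. The members varied less between replicates than all genes, with a median SD within groups of 0.11 against 0.17 on the log2 scale. The 2 sets were not matched for brightness. On each array 22.4% to 28.6% of all probe sets read under 32, while the dimmest member had a mean of 242. Mrps6 varied most (0.35) and did not pass, at 0.36 (adjusted p = 0.166). In brightness Mrpl39, Mrps33, Mrpl41 and Mrpl27 had the highest mean intensities (2463, 1969, 1853 and 1776) and Mrpl33, Mrpl54, Mrpl37 and Mrps5 the lowest (242, 261, 265 and 279.9), which does not order their transcript amounts, since probe sets differ. Mrpl39, Mrps33 and Mrpl27 had mean responses of −0.08 (adjusted p = 0.434), −0.0030 (adjusted p = 0.99) and −0.07 (adjusted p = 0.493), and Mrpl33, Mrpl37 and Mrps5 of −0.07 (adjusted p = 0.665), −0.12 (adjusted p = 0.504) and −0.26 (adjusted p = 0.0805).

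Within wild-type, 14 of 74 members fell and 3 rose (18.9% and 4.05%), where 8.88% of all genes fell and 9.59% rose. The median change was −0.14, and −0.035 over all genes. Arrays of sham and ischemia did not overlap for 29 members on the lower side (19.5% of all genes) and 6 on the higher side (15.6%). Without wild-type ischemia replicate 2 the 3 rises became 5, and with probe sets averaged 1. Calls in all alternatives run were kept by Mrpl14, Mrpl18, Mrpl34, Mrpl36, Mrpl42, Mrpl55, Mrps12, Mrps21 and Mrps26.

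Within SUMO-KD, 8 members fell and 1 rose (10.8% and 1.35%), where 4.62% of all genes fell and 6.08% rose, and the median change was −0.11, against −0.022 over all genes. On the lower side 25 members had groups that did not overlap (15.9% of all genes) and on the higher side 8 (13.9%). The 8 falls became 5 without SUMO-KD sham replicate 1 or 3, 4 with only SUMO-KD arrays fitted and 14 with array weights. Without SUMO-KD ischemia replicate 2, the array with sham-like 18S signal, 6 fell and 0 rose, and the median was −0.11. Mrpl36 alone kept its SUMO-KD call in all alternatives run. Over all 6 ischemia against all 6 sham arrays, 14 members did not overlap on the lower side (5.86% of all genes) and 3 on the higher (6.80%).

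**Figure D3:**
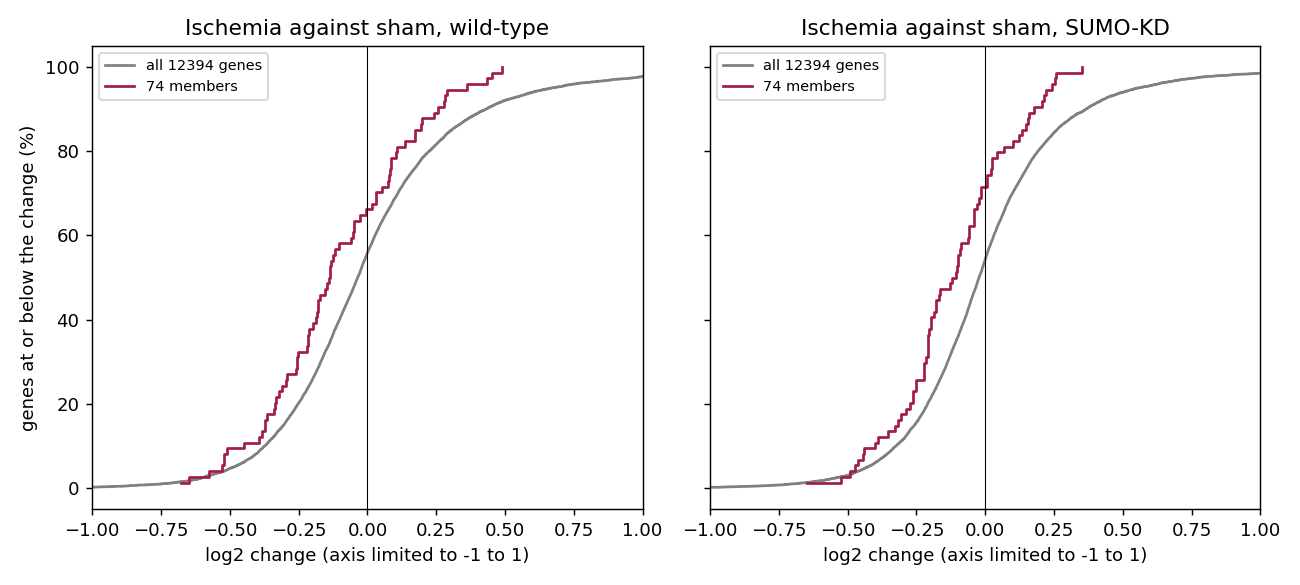
Cumulative distribution of the ischemia change in wild-type (left) and SUMO-KD (right). The x axis is the log2 change and the y axis the percentage of genes at or below it, for the 74 members (red) and all 12394 genes (grey). The red curve lies to the left of the grey one around its middle, with medians of −0.14 and −0.11 against −0.035 and −0.022.

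Mrpl11, Mrpl18, Mrpl34, Mrpl36, Mrpl44 and Mrpl51 fell in both genotypes and Mrpl9 rose in both. Past the threshold in wild-type alone were the falls of Mrpl14, Mrpl23, Mrpl24, Mrpl41, Mrpl42, Mrpl55, Mrps12 and Mrps21 and the rises of Mrps2 and Mrps26, and in SUMO-KD alone the falls of Mrpl50 and Mrps25. None of the 12 passed in the test of the difference between responses. In that limma test 0 of 74 members and 0.0161% of all genes were called. An unadjusted p under 0.05 was found for 3 members and for 768 of all 12394 genes. Both genotypes had a change below 0 for 45 members and above 0 for 17, and 12 had opposite signs. The median interaction over members was −0.0017 and moved to −0.053 without SUMO-KD sham replicate 2, with its sign differing between alternatives.

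**Figure D4:**
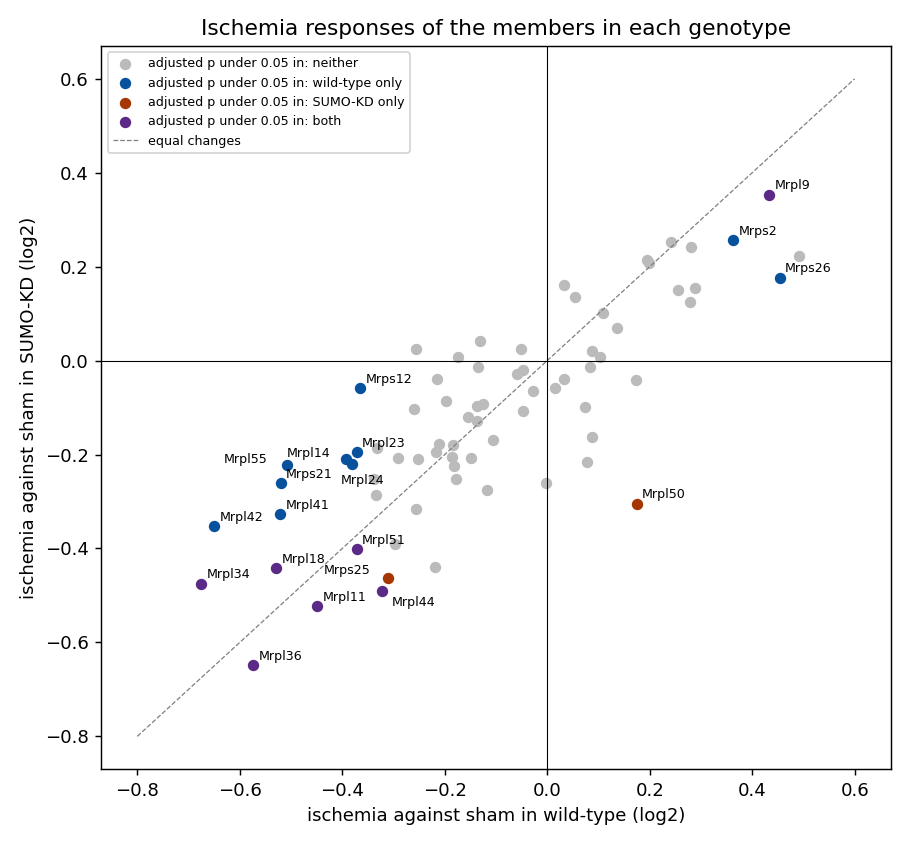
Ischemia change of each member in wild-type (x axis) against SUMO-KD (y axis), both as log2 differences from sham. Each point is 1 of 74 members, coloured by where its adjusted p was under 0.05, and the dashed line marks equal changes. In the lower left lie 45 members below 0 in both genotypes, and Mrpl50 stands apart at 0.17 and −0.30.

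The members with the smallest interaction p were Mrpl50, Mrps12, Mrpl55, Mrps26 and Mrps21. Mrpl50 is a mitochondrion-specific protein of the large subunit. Its intensity was 310.2, 320.0 and 311 in wild-type sham, 379.8, 369 and 327 after wild-type ischemia, 352, 392 and 353 in SUMO-KD sham and 287, 294 and 287 after SUMO-KD ischemia. Wild-type ischemia arrays were all above, and SUMO-KD ischemia arrays all below, the sham arrays of their genotype. The changes were 0.17 (adjusted p = 0.17) and −0.30 (adjusted p = 0.0351), with an interaction of −0.48 (SE 0.12, adjusted p = 0.43). The other Mrpl50 probe set had −0.029 and −0.020. The Mrpl50 call in SUMO-KD was lost without any 1 of the 6 SUMO-KD arrays (adjusted p 0.0661, 0.124 and 0.0664 without sham replicates 1 to 3, and 0.0715, 0.0856 and 0.0992 without ischemia replicates 1 to 3) or without wild-type sham replicate 1 (0.0532), with probe sets averaged (0.217) and with only SUMO-KD arrays fitted (0.0785).

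The interaction was 0.31 (SE 0.10, adjusted p = 0.718) for Mrps12, 0.29 (SE 0.13, adjusted p = 0.796) for Mrpl55, −0.28 (SE 0.13, adjusted p = 0.814) for Mrps26 and 0.26 (SE 0.14, adjusted p = 0.861) for Mrps21. For Mrps12, Mrpl55 and Mrps21 the wild-type change was the larger in size, and likewise for Mrps26, which rose in wild-type. The 95% interval of the interaction lay between −1 and 1 for 73 members and between −0.5 and 0.5 for 48, so for the other 26 a difference between responses of more than 0.5 in size is not excluded.

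Between the genotypes 0 members were called by limma in sham arrays (2.10% of all genes) and 0 after ischemia (1.56%). In sham 8 of 74 members and 1758 of all 12394 genes had an unadjusted p under 0.05 in this test. After ischemia 9 members and 1915 of all genes had one. The median SUMO-KD minus wild-type difference was 0.051 in sham and 0.068 after ischemia. In sham the smallest p-values belonged to Mrpl48 at −0.24 (SE 0.081, adjusted p = 0.18), Mrps21 at −0.27 (SE 0.1, adjusted p = 0.239), Mrps16 at 0.27 (SE 0.11, adjusted p = 0.286), Mrpl50 at 0.20 (SE 0.082, adjusted p = 0.294) and Mrpl19 at 0.24 (SE 0.10, adjusted p = 0.33). After ischemia they belonged to Mrps12 at 0.27 (SE 0.074, adjusted p = 0.108), Mrpl50 at −0.28 (SE 0.082, adjusted p = 0.131), Mrpl14 at 0.31 (SE 0.09, adjusted p = 0.134), Mrpl48 at −0.26 (SE 0.081, adjusted p = 0.15) and Mrpl55 at 0.24 (SE 0.089, adjusted p = 0.225). For Mrpl48 the intensity was 875, 899 and 871 in wild-type sham and 739.7, 758 and 721 in SUMO-KD sham, and 769, 794 and 752 and 703, 593 and 621 after ischemia, with no overlap. Its probe set is of a type that can read related sequences, and with the other Mrpl48 probe set in its place the difference was −0.033 (adjusted p = 0.921) in sham and −0.016 (adjusted p = 0.965) after ischemia. With array weights Mrps12 passed after ischemia (0.31, adjusted p = 0.0407). In each of these comparisons the 95% interval lay between −1 and 1 for all 74 members and between −0.5 and 0.5 for 66.

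Markers of cell types also differed between groups. The summed intensity of the 4 measured CA1 pyramidal markers was 5524 to 7607 in wild-type sham, 3942 to 4530.0 in wild-type ischemia, 3069 to 4275 in SUMO-KD sham and 3461 to 3727 in SUMO-KD ischemia arrays. Wfs1, a marker of CA1 pyramidal cells, had 2252 ± 408, 1467 ± 202, 1209 ± 143 and 1164 ± 158 in the same order (SD, n = 3), so the defining marker of the labelled tissue was present in all groups. Of these 4 markers 2 fell with ischemia in wild-type and 0 in SUMO-KD, and 2 were lower in SUMO-KD than in wild-type sham. The sum of 6 dentate granule cell markers was 5607 to 7790.3, 4375 to 4633, 8221 to 10595 and 5949 to 6941, so markers of the neighbouring field were present too. Of these 6, Calb1, Dsp, Lct and Tdo2 fell and Prox1 rose in the mean response (median −0.48), and Calb1 and Npnt were higher in SUMO-KD than in wild-type sham. Microglial markers fell in 4 of 7 cases in the mean response, with sums of 5875 to 6620 and 5188 to 5655 in wild-type sham and ischemia and of 6187 to 6386 and 5026 to 5462 in SUMO-KD. Of 7 endothelial markers 2 fell and 1 rose, with sums of 4199.9 to 4424 and 3235 to 3932 in wild-type and 3705 to 4443 and 3082 to 3331 in SUMO-KD. Of 8 astrocyte markers Gfap and Sox9 rose in the mean response, by 0.57 (adjusted p = 0.000876) and 0.83 (adjusted p = 2.2e-05), and Gfap and Aqp4 were higher in SUMO-KD than in wild-type sham. The summed astrocyte markers were 20133 to 24148 and 20746 to 24257 in wild-type sham and ischemia and 24688 to 26522 and 23474 to 25460 in SUMO-KD. Of 5 blood markers S100a8 and S100a9, genes of neutrophils, rose and the haemoglobin gene Hba-a2 fell, with sums of 172 to 356 and 286 to 329 in wild-type and 108 to 216 and 275 to 1160 in SUMO-KD. Of 7 oligodendrocyte markers Ugt8a fell, and no call was made by limma among 5 markers of CA3 pyramidal cells or 5 of choroid plexus in the mean response (0 of either list at an unadjusted p under 0.05). These differences ran with surgery or genotype, and their part in the members' changes was not tested.

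On each array the median deviation of the members from their own means was above 0 in all 6 sham arrays, from 0.021 to 0.13, and below 0 in all 6 ischemia arrays, from −0.12 to −0.0049. The corresponding median over all genes ran from −0.045 to 0.043 with no such split. The member medians of wild-type ischemia arrays, from −0.12 to −0.063, lay below that range. Those of SUMO-KD ischemia arrays, from −0.018 to −0.0049, lay within it, as did some sham medians. SUMO-KD ischemia replicate 2, whose 18S signal was sham-like, had a member median of −0.012, between those of the other SUMO-KD ischemia arrays. Without this array 19 members fell and 3 rose in the mean response, with a median of −0.13.

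**Figure D5:**
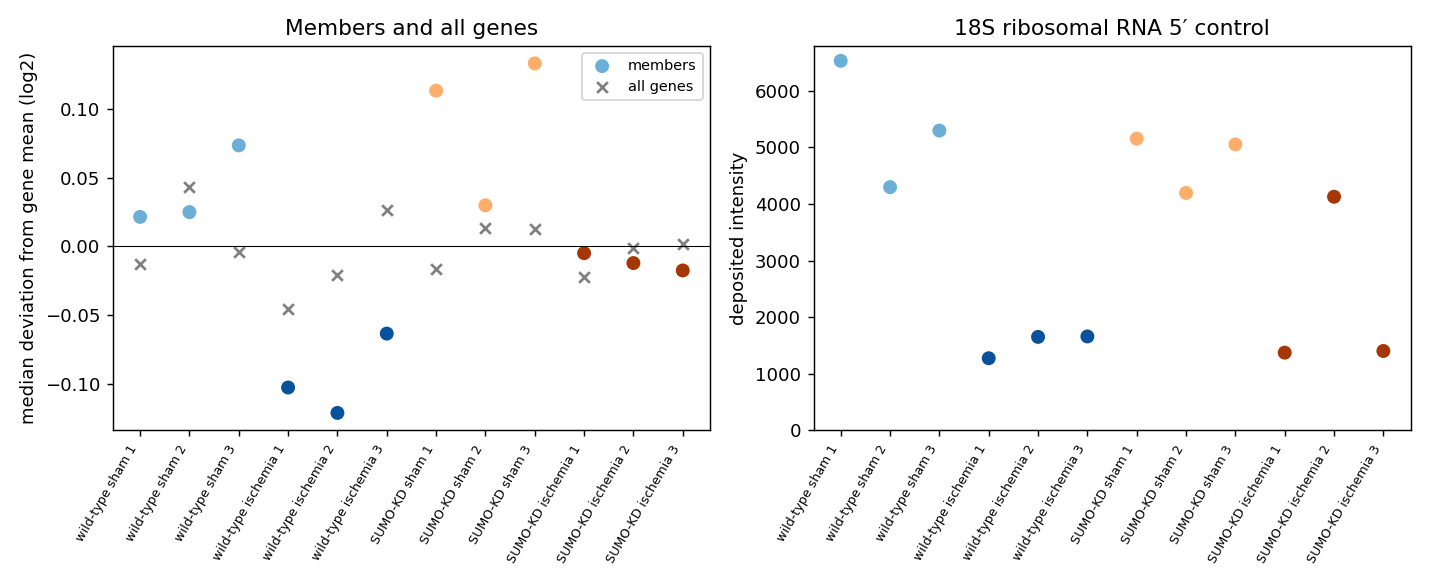
Left, the median deviation of the 74 members from their own means on each array (circles, coloured by group, log2), with that of all genes (crosses). Right, the intensity of the 18S 5′ control on the same arrays. Circles lie above 0 on the 6 sham arrays and below 0 on the 6 ischemia arrays, while the control is at 4127 on SUMO-KD ischemia replicate 2 and at 1275 to 1660 on the other ischemia arrays.

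Other genes of mitochondrial translation were counted from lists of known factors, beside the 14.0% of all genes that fell and the 12.8% that rose in the mean response. Of 6 measured mitoribosome proteins under other symbols 0 fell and 1 rose in the mean response, Ptcd3, a small subunit protein with pentatricopeptide repeats, at 0.44 (SE 0.084, adjusted p = 0.0026). Of 7 translation factors 2 fell and 1 rose. Mtfmt, the enzyme that formylates the initiator methionyl-tRNA, went from 226 ± 14.2 to 110.1 ± 16.6 in wild-type and from 251 ± 45.8 to 119 ± 20.4 in SUMO-KD (SD, n = 3), with a change of −0.88 (SE 0.097, adjusted p = 6.01e-05). That is a larger log2 change than of any ribosomal member. Mrrf, the ribosome recycling factor, fell, at −0.42 (SE 0.056, adjusted p = 0.000208), and Mtres1, a rescue factor, rose by 0.19 (SE 0.061, adjusted p = 0.0363).

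Of 20 genes of mitoribosome assembly and ribosomal RNA modification 6 fell and 2 rose. Mterf3, a negative regulator of mitochondrial transcription that is also needed for assembly of the large subunit, fell, at −0.58 (SE 0.086, adjusted p = 0.000468), from 1133 ± 27.4 to 766 ± 127 in wild-type and from 1132 ± 8.66 to 735 ± 93.8 in SUMO-KD. The ribosomal RNA methyltransferase gene Mrm3 rose by 0.49 (SE 0.061, adjusted p = 0.000133), Mettl17 rose by 0.45 (SE 0.11, adjusted p = 0.012) and the GTPase gene Noa1 fell, at −0.30 (SE 0.09, adjusted p = 0.0282). Of 13 mitochondrial aminoacyl-tRNA synthetase genes, counted with those that form glutaminyl-tRNA, 3 fell and 1 rose. Pars2, the prolyl enzyme, fell, at −0.54 (SE 0.082, adjusted p = 0.000564), Qrsl1 at −0.52 (SE 0.11, adjusted p = 0.00383) and Gatc at −0.29 (SE 0.072, adjusted p = 0.0102), and Gars, the glycyl enzyme shared with the cytosol, rose by 0.29 (SE 0.069, adjusted p = 0.00867).

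A list for mitochondrial transcription and RNA maintenance, which also held genes with other main roles such as Polg and Suclg1, had 19 measured genes. Of these 7 fell (Fastkd1, Lrpprc, Polg, Polrmt, Ssbp1, Suclg1 and Tefm) and 1 rose. Polrmt, the mitochondrial RNA polymerase, went from 569 ± 46.2 to 318 ± 26.7 in wild-type and from 604 ± 38.7 to 369 ± 42.5 in SUMO-KD (SD, n = 3), and fell, at −0.72 (SE 0.074, adjusted p = 3.44e-05). Tefm, its elongation factor, fell, at −0.61 (SE 0.08, adjusted p = 0.000209) and Ssbp1, the mitochondrial single-strand DNA binding protein, at −0.49 (SE 0.067, adjusted p = 0.000294). Trmt10c, a subunit of mitochondrial ribonuclease P, rose by 0.61 (SE 0.099, adjusted p = 0.000879). Tfam, the transcription and packaging factor of mitochondrial DNA, had 0.13 (adjusted p = 0.253) and did not pass.

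Of 12 biogenesis regulators 5 rose and 1 fell in the mean response (12.8% of all genes rose and 14.0% fell), 6 were not called, and the median of the list was 0.037. In SUMO-KD alone 1 of the 12, Myc, was called. Myc, a growth-related transcription factor, rose from 68.9 ± 8.77 to 324 ± 5.87 in wild-type and from 92.1 ± 5.96 to 323 ± 29.5 in SUMO-KD, by 1.67 (SE 0.066, adjusted p = 2.77e-08). Nrf1, which binds the GCATGCGC letters searched above, rose by 0.45 (SE 0.12, adjusted p = 0.0127), and the coactivator genes Ppargc1b and Ppargc1a by 0.36 (SE 0.089, adjusted p = 0.0117) and 0.34 (SE 0.095, adjusted p = 0.0208). Yy1, whose letters were found in 11 member windows, rose by 0.31 (SE 0.093, adjusted p = 0.0269). Hcfc1 fell, at −0.23 (SE 0.056, adjusted p = 0.0114). Whether these factors bind at the members was not measured.

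Families chosen by symbol, after results of these data were known, are set beside the members. Of 48 cytosolic ribosomal protein genes 0 fell and 3 rose in the mean response (Rpl12, Rpl22 and Rps25), with a median of 0.026. Of 79 nuclear genes of the respiratory chain and ATP synthase, the complexes whose core the mitoribosome supplies, 19 fell and 2 rose (14.0% and 12.8% of all genes did), with a median of −0.13. In wild-type 13 of the 79 fell (8.88% of all genes did) and in SUMO-KD 2 (4.62% of all genes did), with medians of −0.18 and −0.067, while the members had −0.14 and −0.11. No test of these differences between families was made. Of mitochondrially encoded messages ND5 was measured, at intensities of 14593 to 18695, near the top of the scale, with a mean response of −0.028 and no call.

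Genes of this family often share a start region with a neighbour. Of the 65 members with a window 20 (30.8%) had the start of another gene on the opposite strand within 500 bases, against 12.7% of measured genes with a window. Mrpl46 and Mrps11 were each other's partner, 42 bases apart, with mean responses of −0.08 (adjusted p = 0.422) and −0.21 (adjusted p = 0.0958). Of 15 measured partners 3 fell and 1 rose, near the shares of all genes (14.0% and 12.8%), with a median of −0.00049. Mrpl14 and its partner Tmem63b, 131 bases away, both fell (−0.30 and −0.36, adjusted p = 0.0286 for Tmem63b). Mrpl18 fell while its partner Tcp1, a subunit of the cytosolic chaperonin, had 0.060 (adjusted p = 0.616), and the partner of Mrps12, Sars2, which encodes the mitochondrial seryl-tRNA synthetase, had 0.076 (adjusted p = 0.747). The partner of Mrpl50, Zfp189, rose by 0.36 (adjusted p = 0.0055).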

How the data were processed

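Affymetrix arrays measured biotin-labelled target from total RNA of 12 samples. Per the labels' protocols, Trizol was used for extraction and the MessageAmp Premier kit for amplification. The deposited table holds linear intensity values, with a trimmed mean near 500.2 on every array. Partek 6.6 and RMA are named, without roles, in the submitters' processing notes, but the values do not have the log2 form of RMA output. How the table was made is not stated in them.

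Of 22690 probe sets 20393 had 1 symbol in the platform annotation. The probe set with the highest mean log2(intensity + 32) stood for each of 12394 genes. The deposited intensity values were tested as log2(intensity + 32), the log2 scale being computed here, with limma 3.58.1 in R 4.3.3, by group means of 4 groups with a shared spread, eBayes and Benjamini-Hochberg adjustment, two-sided. The procedure was tested on simulated data. No array was dropped. Precision is limited by the number of arrays.

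Named were called members (up to 15 per direction and ischemia comparison), the 5 smallest p-values where fewer than 5 members passed a genotype test, the 4 brightest and 4 dimmest members, and up to 4 called genes of each list. The members and lists were chosen with earlier results of these data known, so counts of them are descriptions and no set test was made. Alternatives were other offsets, probe set choices, dim filters, scalings, a replicate block, smaller fits, eBayes settings, array weights and omission of each array, in which groups of 2 shared the pooled spread.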

Additional observations from a re-analysis of the deposited data

Results flagged for a closer look

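Mrpl50 was picked out because its arrays moved in opposite directions in the 2 genotypes: the 3 wild-type ischemia arrays were all above the 3 wild-type sham arrays, and the 3 SUMO-KD ischemia arrays were all below the 3 SUMO-KD sham arrays. The difference of the responses was −0.48 on the log2 scale (SE 0.12), and limma's test of that difference gave adjusted p = 0.43 over all genes, so it did not pass. The other Mrpl50 probe set did not show opposite changes, with −0.029 in wild-type and −0.020 in SUMO-KD. How many of all genes had such opposite groups was not counted.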

How the results depend on the processing

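No change of a called member turned its direction under the alternatives run. Nor did that of the 5 members with the smallest p in each genotype comparison and the interaction. Other named genes were not followed through the alternatives. The median interaction, −0.0017 in the main analysis, was above 0 with probe sets averaged (0.0033), quantile normalization (0.018), median centring (0.022) and array weights (0.013). In wild-type the lower count ranged from 11 to 20 over the settings and from 10 to 15 with an array left out, and the mean response's from 17 to 28 and from 18 to 23. The wild-type rises, 3 in the main analysis, were 1 with probe sets averaged and 2 to 5 with an array left out. In SUMO-KD the 8 falls were 4 with only the compared arrays fitted, 14 with array weights and 5 to 10 with an array left out, and the single rise was lost (0) with probe sets averaged, median centring or only the compared arrays, and was 0 to 1 with an array left out. The 5 rises of the mean response were 3 with median centring and 3 to 5 with an array left out. Median centring moved the median change of the members to −0.20 in wild-type, −0.15 in SUMO-KD and −0.18 in the mean response, and shifted the median of all genes in the mean response from −0.029 to −0.082. With probe sets that can read several transcripts left out, which leaves 59 members, the SUMO-KD median was −0.16. Between the genotypes after ischemia 1 member, Mrps12, passed with array weights. With an array left out the median interaction lay between −0.053 and 0.020. The cause of these shifts was not tested.

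Of 18 correlations between same-numbered samples in their deviations from group means, 5 were above 0.1 (range −0.17 to 0.28). Of 36 between differently numbered samples, 6 were above 0.1 (range −0.36 to 0.34). These values do not settle whether same-numbered samples share an effect, and the replicate block was run as an alternative only. With the replicate block 22 members fell and 4 rose in the mean response, and 14 and 3 changed in wild-type and 8 and 1 in SUMO-KD. The arrays carry no depth, and their number limits which changes could be called.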
